A study of Mus musculus with 18 samples.

Results

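Both routes by which AOS could act on a mouse given a high fat diet and STZ were set side by side: a transplant of faecal microbiota from AOS-dosed donors, and dosing with AOS itself. The comparison took the 3 HS_AOSFMT spleen libraries against the 3 HS_AOS spleen libraries, 6 of the 18 libraries of the study, over the 12969 of 19326 entries that reached 1 FPKM in at least 3 of the 18. FPKM (fragments per kilobase of transcript, relative to the mapped total) is scaled for gene length and library total. HS_AOSFMT mice had a high fat diet, STZ (streptozotocin, a toxin of insulin-producing cells) and a faecal microbiota transplant (FMT) named in the labels for AOS at 10 mg/kg. In HS_AOS mice, diet and STZ were joined by direct dosing with AOS at 10 mg/kg. All were ICR mice aged 10 weeks. The labels do not spell out AOS, do not say whether transplant recipients also received AOS, and do not say whether the 3 libraries of a group came from separate animals, so each p-value speaks for the scatter of these libraries, which may be technical. The remaining groups, 3 libraries each, were HS_conFMT (diet, STZ and a control transplant), HS (diet and STZ), AOS (AOS alone) and control, and they entered the fit only to share its estimate of the spread.

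Spleen filters blood, removes old red cells, makes blood cells in mice, and holds B cells, T cells and phagocytes. Several programs set out here are general cell responses. The cytosolic heat shock response, driven by the factor HSF1, makes chaperones that refold proteins, whereas the unfolded protein response does so for the endoplasmic reticulum (ER), where secreted and membrane proteins fold. Glucocorticoids act through the receptor Nr3c1 on a set of direct target genes, and cyclic AMP (cAMP) acts through CREB on early genes such as Crem, itself a cAMP-induced regulator of that pathway.

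With the values as deposited, more genes passed the test as higher than as lower in transplant recipients. That balance depended on the scaling, as set out below. Of the 12969 genes, 833 (6.42%) were higher and 278 (2.14%) lower in HS_AOSFMT than in HS_AOS at an adjusted p under 0.05 (limma on log2(FPKM + 1), Benjamini-Hochberg over all genes). Such genes are described as called, and together they made up 8.57% of those tested. An unadjusted p under 0.05 was reached by 3407 genes (26.3%). The list counts given here are to be read against these shares of all genes. Most differences were small: the median size of a called difference was 0.457 on the log2 scale, and 64 genes called higher and 16 called lower differed by at least 1. Heat shock chaperones, ER chaperones, glucocorticoid targets and cAMP-responsive genes were among the higher ones, and pancreatic enzymes, 1 enzyme of haem synthesis and the cold-inducible RNA-binding protein gene Rbm3 among the lower ones.

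The share of higher calls depended on the scaling. Haemoglobin transcripts made up 12.9% to 17.6% of the summed FPKM in HS_AOSFMT libraries and 21.5% to 33.1% in HS_AOS libraries, so every other gene was scaled against a smaller remainder in HS_AOS. With haemoglobin and pancreatic enzyme genes left out of the total, the median of the shift of each gene was -0.109, and 871 genes were called, of which 344 (39.5%) were higher and 527 lower, against 75.0% higher with the values as deposited. No called gene changed sign. Differences are therefore to be read against the median of all genes, which was 0.058 as deposited and -0.045 after rescaling.

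The number of calls also rested on single libraries. It was 375 without HS_AOS 1, 363 without HS_AOS 3, 416 without HS_AOSFMT 1, 502 without HS_AOSFMT 2 and 383 without HS_AOSFMT 3, against 1028 without HS_AOS 2. In each of those 6 fits 250 genes (1.93%) were called. The 3 HS_AOSFMT libraries stood apart from the rest of the study: their lowest value lay above all 15 other libraries for 1042 genes (8.03%), and their highest lay below all 15 for 177 (1.36%). For the other groups the shares above all other libraries ran from 0.0154% in HS to 0.733% in AOS. These shares were read on the values as deposited and not after rescaling, so their balance may depend on the scaling. The labels give no batch or collection date, so a technical difference shared by these 3 libraries cannot be told apart from the transplant.

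**Figure D1:**
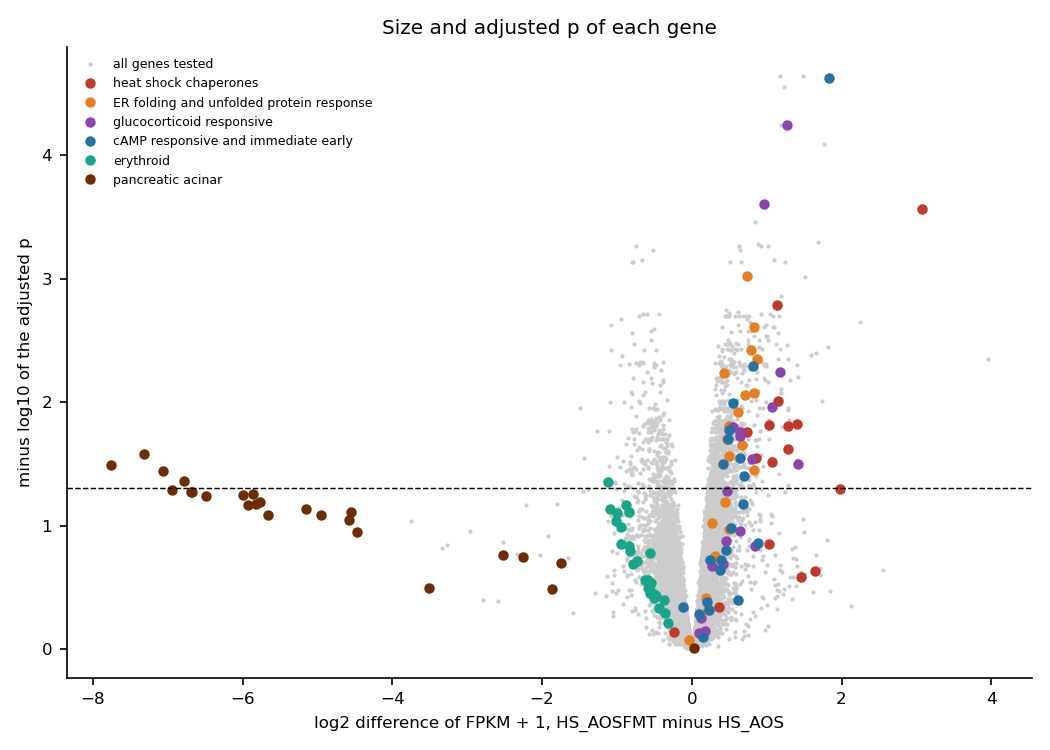
Each point is a gene, with its log2 difference in FPKM + 1 (HS_AOSFMT minus HS_AOS) on the horizontal axis and minus log10 of its adjusted p on the vertical axis, the dashed line marks 0.05, and colours mark 6 gene lists. Chaperone, glucocorticoid and cAMP members lie to the right, erythroid and pancreatic acinar members to the left, and Crem and Fkbp5 are the highest coloured points.

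Heat shock chaperones showed the widest shift of the stress lists. Hspb1, a small heat shock protein gene (chromosome 5, 135887919 to 135889563, mm10), had 119, 143 and 148 FPKM in HS_AOSFMT 1, 2 and 3, against 23.8, 9.97 and 14.7 FPKM in HS_AOS 1, 2 and 3. The log2 difference was 3.07 ± 0.33 (SE, adjusted p = 0.000271, limma). The groups did not overlap, but naming by size required this, and 24.4% of all genes did so in that direction. The difference was second in size to that of Zfp979 among genes called higher, and Hspb1 was called in all 6 fits that left out 1 library. Serpinh1, the collagen chaperone of the ER, had 63.4, 66.7 and 76.6 FPKM in HS_AOSFMT libraries and 21.5, 23.6 and 25.2 FPKM in HS_AOS libraries, a log2 difference of 1.51 ± 0.20 (adjusted p = 0.000961, limma).

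Of 16 tested members of the heat shock list, 10 rose and 0 fell, and the list's median difference was 1.14, against 0.058 over all genes. Hspe1, the mitochondrial co-chaperonin, averaged 361 ± 34.1 FPKM in HS_AOSFMT and 164 ± 15.1 FPKM in HS_AOS (SD, n = 3 each; log2 difference 1.13, adjusted p = 0.00164, limma). Ahsa1, the activator of the HSP90 ATPase, averaged 204 ± 26.0 FPKM in HS_AOSFMT and 91.4 ± 12.7 FPKM in HS_AOS. Chordc1, a co-chaperone of HSP90, averaged 131 ± 27.4 FPKM in HS_AOSFMT and 48.3 ± 6.24 FPKM in HS_AOS. The abundant cytosolic chaperones moved with them. Hspa8, the constitutive HSP70, had 2187, 2597 and 2056 FPKM in HS_AOSFMT libraries against 1050, 995 and 1186 FPKM in HS_AOS libraries. Hsp90ab1, the constitutive HSP90, had 1322, 1576 and 1361 FPKM in HS_AOSFMT libraries against 683, 658 and 744 FPKM in HS_AOS libraries. Hsph1 missed the threshold with a log2 difference of 1.98 (adjusted p = 0.0502, limma), as did the inducible HSP70 genes Hspa1a (1.46, adjusted p = 0.261) and Hspa1b (1.65, adjusted p = 0.232), a near-identical pair whose reads may have been split between them. Hsf1 itself, added after its values were seen, averaged 40.2 ± 4.13 FPKM in HS_AOSFMT and 28.3 ± 2.06 FPKM in HS_AOS (log2 difference 0.49, adjusted p = 0.0286, limma).

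The level of heat shock genes varied within the other groups as well. The mean log2(FPKM + 1) over the list was 7.04, 7.5 and 7.13 in HS_AOSFMT libraries, 6.08, 5.64 and 6.34 in HS_AOS libraries, 6.07, 7.21 and 7.45 in HS libraries and 5.85 to 7.14 in control libraries. HS_AOSFMT and HS_AOS did not overlap, but HS 2 and HS 3 lay within the range of HS_AOSFMT, and HS 1 within that of HS_AOS. HS_conFMT libraries, at 6.64 to 6.93, all lay above HS_AOS and below HS_AOSFMT. The average was lowest in HS_AOS, at 6.02, beside 6.27 in AOS, 6.57 in control, 6.75 in HS_conFMT, 6.91 in HS and 7.22 in HS_AOSFMT. The count of 10 was 4 without HS_AOS 1, 6 without HS_AOS 3, 3 without HS_AOSFMT 2 and 6 without HS_AOSFMT 3. Chordc1 and Hsp90ab1 lost the call without HS_AOS 1 or HS_AOSFMT 2, Hsf1 without HS_AOS 1, HS_AOS 3, HS_AOSFMT 1 or HS_AOSFMT 3, and Hspa8 and Hspd1 in all 6 such fits.

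Promoter letters were read around the RefSeq starts (GRCm38.p6, 250 bases before to 50 after) for 2 stress elements, the heat shock element and the ER stress element. The heat shock element was searched as TTC, GAA and TTC with 2 free bases between neighbours, on both strands. It was found for 179 of 27025 genes with a window (0.66%), for 7 of the 648 called-higher genes with a window (1.08%) and for 0 of 206 called lower. Among the 12 heat shock genes with a window, 4 held it (33.3%): Hspe1, Hspd1, Hsph1 and Chordc1. Hspe1 and Hspd1 are neighbours transcribed away from each other and share the match. The shared site (chr1:55088051-55088080, plus strand) and that of Chordc1 (chr9:18292260-18292289, plus strand) are shown because these 3 genes are the called members of the list that hold it, with 1 match in capitals. A second match overlaps it between Hspe1 and Hspd1 on the minus strand, and 2 more overlap it in the Chordc1 window.
Hspe1 and Hspd1: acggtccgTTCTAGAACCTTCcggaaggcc
Chordc1: ccggaacgTTCGGGAAAATTCctgaagcag
Of the 54 tested genes with the element, 7 (13.0%) were called higher and 0 lower, beside 6.42% of all genes called higher, and their median difference was 0.124. The other 4 called genes with it, Cd209a, Hnrnpa2b1, Dnajb6 and Prkrip1, are not in the list, and their differences were 1.06, 0.23, 0.24 and 0.31.

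ER chaperones rose with smaller differences and tighter replicates. Of 20 tested members of the ER folding and unfolded protein response list, 13 rose and 0 fell, with a median of 0.49, and 7 were called in all 6 fits without 1 library. Hspa5, which encodes BiP, the main ER chaperone (chromosome 2, 34771970 to 34777547, mm10), had 355, 398 and 394 FPKM in HS_AOSFMT libraries, against 219, 210 and 215 FPKM in HS_AOS libraries. The groups did not overlap, and the log2 difference was 0.83 ± 0.13 (adjusted p = 0.00247, limma). Pdia3, a disulphide isomerase that works with calnexin and calreticulin, averaged 277 ± 7.61 FPKM in HS_AOSFMT and 166 ± 3.77 FPKM in HS_AOS (log2 difference 0.74, adjusted p = 0.000949, limma). Its relative Pdia6 had 122, 141 and 145 FPKM in HS_AOSFMT libraries and 87.6, 76.7 and 70.4 FPKM in HS_AOS libraries (adjusted p = 0.00378, limma). Hsp90b1, the HSP90 of the ER, averaged 500.4 ± 50.7 FPKM in HS_AOSFMT and 272 ± 19.9 FPKM in HS_AOS (log2 difference 0.88, adjusted p = 0.00443, limma).

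Transcripts of Xbp1, Atf4 and Ddit3, factors of this response, did not pass the test. Xbp1 averaged 78.5 ± 2.95 FPKM in HS_AOSFMT and 57.5 ± 4.03 FPKM in HS_AOS (log2 difference 0.44, adjusted p = 0.0642, limma), and Atf4 166 ± 14.1 FPKM in HS_AOSFMT and 171 ± 5.74 FPKM in HS_AOS (-0.04, adjusted p = 0.845). Ddit3, the pro-apoptotic factor CHOP, averaged 33.2 ± 1.55 FPKM in HS_AOSFMT and 27.4 ± 2.26 FPKM in HS_AOS (0.27, adjusted p = 0.0946). The mean log2 level of the list was 6.55 to 6.66 in HS_AOSFMT libraries and 6.02 to 6.14 in HS_AOS libraries. It was 6.41 to 6.72 in the libraries of AOS without diet or STZ, which overlapped HS_AOSFMT. HS libraries, at 6.38 to 6.45, all lay above HS_AOS and below HS_AOSFMT. Those of HS_conFMT (5.87 to 6.32) and control (5.99 to 6.31) overlapped HS_AOS. The count of 13 was 7 without HS_AOS 3 and 8 without HS_AOSFMT 3.

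The ER stress element was searched as CCAAT and CCACG with 9 free bases between them, on both strands. It stood in the windows of 37 of 27025 genes (0.14%), and 18 of these genes were tested. Of the 18, 8 (44.4%) were called higher and 0 lower, beside 6.42% of all genes called higher, with a median difference of 0.351. Of the 8, 7 belong to the ER list, so the 44.4% in part repeats the calls of that list. The list had 18 members with a window, and these 7 held the element (38.9%). Alg12, a glycosylation enzyme, shares its match with the neighbouring Creld2. Each of the 8 is shown with 30 bases read in the direction of the element, which is in capitals, because these are the called genes that hold it. Hspa5 is at chr2:34772020-34772049 (plus strand), Hsp90b1 at chr10:86705632-86705661 (minus), Pdia6 at chr12:17266486-17266515 (plus), Canx at chr11:50325794-50325823 (minus), Calr at chr8:84847070-84847099 (plus), Dnajc3 at chr14:118937822-118937851 (plus), and the site between Creld2 and Alg12 at chr15:88819514-88819543 (minus).
Hspa5: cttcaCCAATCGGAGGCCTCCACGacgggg
Hsp90b1: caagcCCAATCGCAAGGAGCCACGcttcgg
Pdia6: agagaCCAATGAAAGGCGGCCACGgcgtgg
Canx: attgaCCAATCACCACGCTCCACGaagaat
Calr: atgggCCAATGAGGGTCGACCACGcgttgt
Dnajc3: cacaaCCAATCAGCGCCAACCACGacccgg
Creld2 and Alg12: gtggaCCAATTGAGGCTCGCCACGagaagc
Canx and Calr encode the lectin chaperones calnexin and calreticulin, and their differences were smaller (0.43 and 0.49 on the log2 scale) than those of Hspa5 and Hsp90b1. Hsp90b1 held another match in its window. Calr lost the call in each fit without 1 library other than HS_AOS 2, Dnajc3 without HS_AOS 1, HS_AOS 3, HS_AOSFMT 1 or HS_AOSFMT 3, and Creld2 in all 6. A match describes letters only and is no evidence of binding.

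Glucocorticoid-responsive genes set the transplant recipients apart from every other group. Of 18 tested members 9 rose and 0 fell, all 18 differences were positive, and the median was 0.64. The mean log2 level of the list was 4.83, 4.75 and 4.79 in HS_AOSFMT 1, 2 and 3, against 4.19, 4.11 and 4.07 in HS_AOS 1, 2 and 3, and the highest of the other 12 libraries, HS_conFMT 3, was at 4.46. Fkbp5, a co-chaperone of steroid receptors and a standard readout of glucocorticoid exposure (chromosome 17, 28399094 to 28517527), had 32.0, 22.3 and 26.6 FPKM in HS_AOSFMT libraries and 10.5, 10.0 and 11.1 FPKM in HS_AOS libraries. The groups did not overlap, and the log2 difference was 1.27 ± 0.12 (adjusted p = 5.71e-05, limma). Its group means elsewhere were 12.5 FPKM in HS_conFMT, 10.4 in HS, 11.4 in AOS and 9.44 in control.

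Zbtb16, the zinc finger factor PLZF, was low but separate, at 2.02, 1.58 and 1.75 FPKM in HS_AOSFMT libraries and 0.43, 0.40 and 0.45 FPKM in HS_AOS libraries (log2 difference 0.96, adjusted p = 0.000248, limma). The metallothionein genes, metal-binding and glucocorticoid-inducible, rose together: Mt1 averaged 228 ± 26.7 FPKM in HS_AOSFMT and 102 ± 27.3 FPKM in HS_AOS, and Mt2 166 ± 35.3 FPKM in HS_AOSFMT and 77.8 ± 12.2 FPKM in HS_AOS. They are similar in sequence and may share reads. Per1, a clock gene that glucocorticoids also induce, averaged 15.8 ± 0.333 FPKM in HS_AOSFMT and 9.80 ± 0.591 FPKM in HS_AOS (log2 difference 0.64, adjusted p = 0.0189, limma). Tsc22d3 (GILZ), another direct target, had a difference of 0.65 and was not called (adjusted p = 0.112), and the receptor gene Nr3c1, added after its values were seen, averaged 39.8 ± 0.775 FPKM in HS_AOSFMT and 29.5 ± 2.74 FPKM in HS_AOS (adjusted p = 0.116, limma). The count of 9 was 4 without HS_AOS 1, 3 without HS_AOS 3, 4 without HS_AOSFMT 1 and 4 without HS_AOSFMT 3. Mt2 lost the call without HS_AOS 3, and Per1 in each fit without 1 library other than HS_AOS 2.

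**Figure D2:**
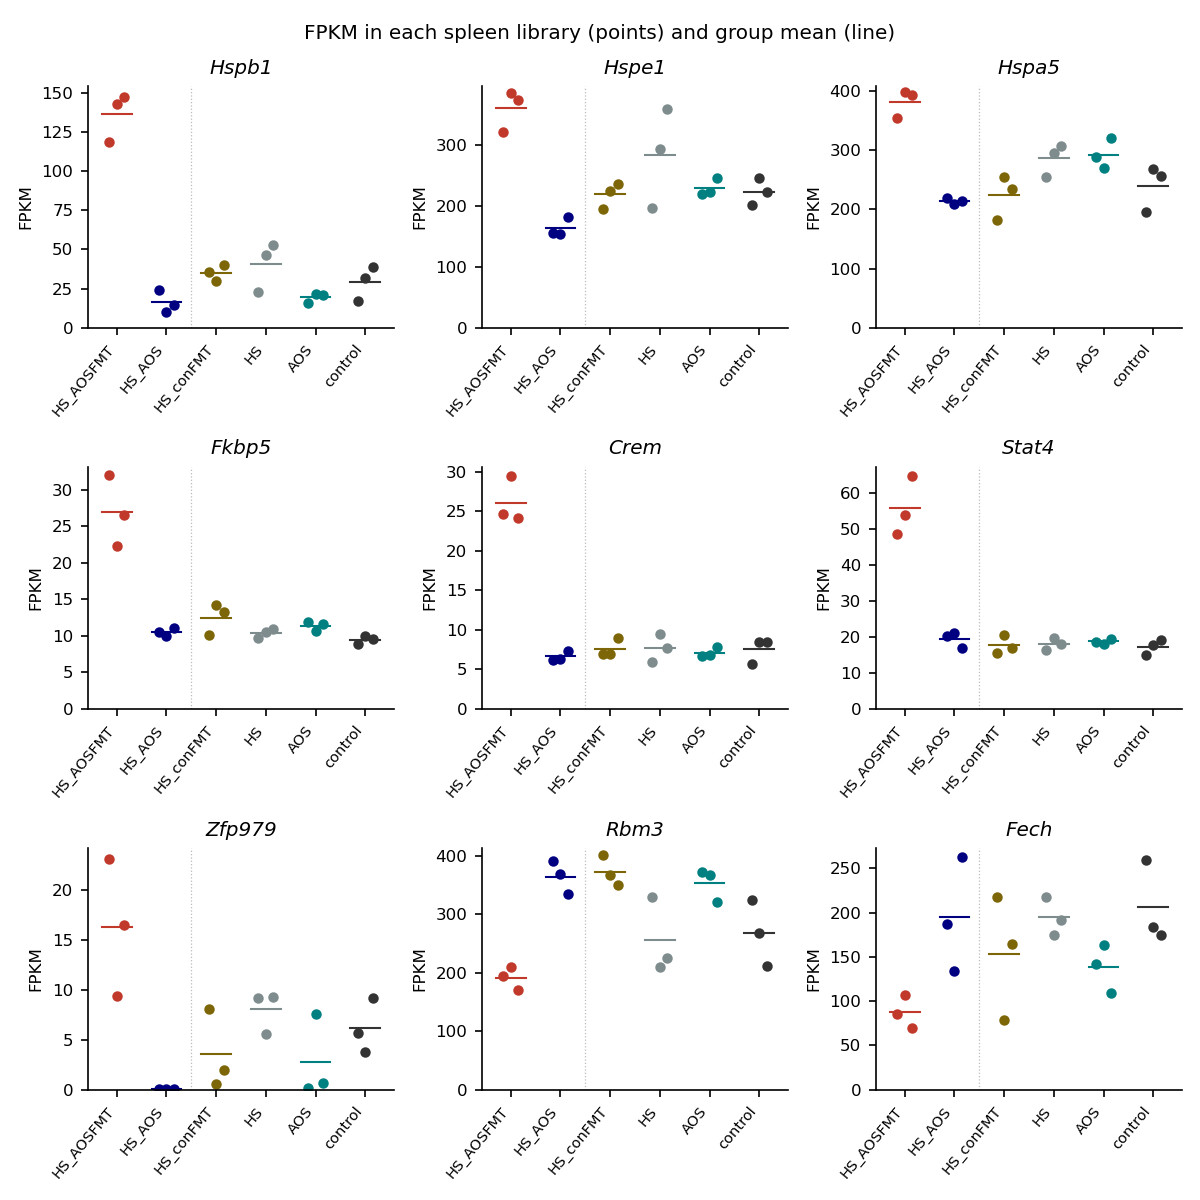
FPKM of 9 genes in each of the 18 spleen libraries, with points for libraries and lines for group means, HS_AOSFMT and HS_AOS to the left of the dotted line and the other groups to its right. Fkbp5, Crem and Stat4 are high in the 3 HS_AOSFMT libraries alone, with Stat4 at 48.8 FPKM or more there and at most 21.03 FPKM elsewhere, whereas Hspe1 and Zfp979 spread widely in other groups.

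Crem carried one of the smallest adjusted p-values of the comparison. It had 24.7, 29.4 and 24.1 FPKM in HS_AOSFMT libraries and 6.22, 6.29 and 7.36 FPKM in HS_AOS libraries (log2 difference 1.83 ± 0.16, adjusted p = 2.39e-05, limma). Crem was named by size, which required groups that do not overlap. In the other 4 groups its mean lay between 7.07 and 7.65 FPKM. Of 21 tested members of the cAMP and immediate early list, 8 rose and 0 fell, with a median of 0.48. Nr4a3, an orphan nuclear receptor induced by cAMP, averaged 3.14 ± 0.162 FPKM in HS_AOSFMT and 1.36 ± 0.193 FPKM in HS_AOS (log2 difference 0.81, adjusted p = 0.00506, limma). Junb, a subunit of AP-1, averaged 59.6 ± 6.24 FPKM in HS_AOSFMT and 40.4 ± 4.54 FPKM in HS_AOS, and the early gene Ier2 44.7 ± 0.366 FPKM in HS_AOSFMT and 31.4 ± 1.25 FPKM in HS_AOS. The classical early genes were not called: Fos had a difference of 0.89 (adjusted p = 0.139), Egr1 of 0.62 (adjusted p = 0.397) and Jun of 0.15 (adjusted p = 0.793).

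The count of 8 was 3 after rescaling without haemoglobin and pancreatic genes and 14 with the 2 groups fitted alone. It was 4 without HS_AOS 1, 2 without HS_AOS 3, 3 without HS_AOSFMT 1, 4 without HS_AOSFMT 2 and 2 without HS_AOSFMT 3. Junb lost the call without HS_AOS 3 or HS_AOSFMT 3, and Ier2 without these or HS_AOSFMT 1. The palindromic cAMP response element TGACGTCA stood in the windows of 38 of 648 called-higher genes (5.86%) and of 3 of 206 called-lower genes (1.46%), beside 3.36% of tested genes and 2.03% of all genes with a window. Of the 15 members of the cAMP list with a window it stood in 1 (6.67%), the antiproliferative gene Btg2, which was not called (log2 difference -0.12, adjusted p = 0.457, limma). Pde3b, a phosphodiesterase that degrades cAMP and was singled out after its values were seen, had 17.98, 18.1 and 18.6 FPKM in HS_AOSFMT libraries and 7.21, 7.26 and 7.71 FPKM in HS_AOS libraries (log2 difference 1.2, adjusted p = 5.71e-05, limma).

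Clock genes moved in part. Of 11 core clock genes, Per1, Per2 and Cry1 rose and 0 fell, with a list median of 0.16. Of 10 clock output genes, Nfil3, Bhlhe40 and Ciart rose and 0 fell, but the list median was 0.055, beside 0.058 over all genes. After rescaling, 2 output genes rose and 1 fell, with a list median of -0.045. The 3 core genes were 27.3% of their list, and the output list had 3 of 10, beside 6.42% of all genes called higher. The E-box CACGTG, the element of the clock activators, stood in the windows of 12.5% of called-higher, 8.74% of called-lower and 11.4% of tested genes, and in 2 of 8 core clock genes with a window, Per1 and Cry1. Nfil3, a repressor that is also needed for several innate lymphoid lineages, averaged 6.03 ± 0.491 FPKM in HS_AOSFMT and 2.80 ± 0.200 FPKM in HS_AOS (log2 difference 0.89, adjusted p = 0.000522, limma) and was called in all 6 fits without 1 library. The core clock count was 0 in each fit without 1 library other than HS_AOS 2, where it was 3, and it was 1 after rescaling. The output count was 1 without HS_AOS 3 or HS_AOSFMT 2, where Bhlhe40 lost the call, and Ciart lost it in all 6 such fits.

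Among lymphocyte genes, signalling components of T cells rose while B cell markers were not called. Stat4, which carries interleukin 12 signals to the Th1 program (chromosome 1, 51987148 to 52107189), had the smallest adjusted p of the comparison. It had 48.8, 54.0 and 64.8 FPKM in HS_AOSFMT libraries and 20.1, 21.03 and 16.9 FPKM in HS_AOS libraries (log2 difference 1.48 ± 0.12, adjusted p = 2.27e-05, limma). The lowest HS_AOSFMT value lay above all 15 other libraries. Of 20 tested genes of the interleukin 12 and Th1 list, Stat4, Ifngr1 and Stat3 rose (3 of 20, beside 6.42% of all genes) and 0 fell, and the median was 0.16. With the 2 groups fitted alone 5 were called. Ifngr1, a chain of the interferon gamma receptor, averaged 95.9 ± 6.73 FPKM in HS_AOSFMT and 60.8 ± 4.85 FPKM in HS_AOS (log2 difference 0.65, adjusted p = 0.00265, limma). Stat3 lost the call in each fit without 1 library other than HS_AOS 2.

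Of 20 tested T cell receptor and signalling genes, 6 rose, 0 fell and all 20 differences were positive, with a median of 0.55. Lat, the adaptor of the T cell receptor, averaged 104 ± 10.9 FPKM in HS_AOSFMT and 57.8 ± 2.47 FPKM in HS_AOS (log2 difference 0.83, adjusted p = 0.0029, limma). The kinase Lck averaged 114 ± 11.6 FPKM in HS_AOSFMT and 67.9 ± 7.81 FPKM in HS_AOS, and the CD3 chains Cd3d and Cd3g were called with differences of 0.71 and 0.72. Cd4 (0.40, adjusted p = 0.179) and Cd8a (0.57, adjusted p = 0.0761) were not. In bulk spleen, more T cells and more RNA per T cell cannot be told apart. The count of 6 was 13 with the 2 groups fitted alone, 3 without HS_AOS 1 and 1 without HS_AOS 3, HS_AOSFMT 1 or HS_AOSFMT 3. Lck and Cd3d lost the call without HS_AOS 3, HS_AOSFMT 1 or HS_AOSFMT 3, and Cd3g also without HS_AOS 1.

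Il7r, the survival receptor of naive and memory T cells, had 42.6, 34.5 and 41.0 FPKM in HS_AOSFMT libraries and 19.1, 18.6 and 21.1 FPKM in HS_AOS libraries (log2 difference 0.97, adjusted p = 0.00497, limma). Satb1, a chromatin organiser of T cells, averaged 53.0 ± 2.69 FPKM in HS_AOSFMT and 26.7 ± 0.649 FPKM in HS_AOS (adjusted p = 0.00633). These were the 2 called among 12 tested genes of the naive T cell list (16.7%, beside 6.42% of all genes), whose median was 0.23. Of 14 B cell markers 0 were called and 0 had an unadjusted p under 0.05 (limma). The mean log2 level of the B cell list was 6.98 to 7.25 in HS_AOSFMT libraries and 6.95 to 7.47 in HS_AOS libraries, which overlapped. Of 14 natural killer and cytotoxic genes 0 were called, and 3 (of 14) had an unadjusted p under 0.05, beside 26.3% of all genes. The germinal centre list had 2 called of 9 (22.2%, beside 6.42% of all genes), Fas and Bcl6, both higher, but 0 without HS_AOS 3 or HS_AOSFMT 1, and 1 without HS_AOSFMT 2 or HS_AOSFMT 3 or after rescaling. Among 12 plasma cell genes Creld2 rose and Tnfrsf17, the survival receptor BCMA, fell (log2 difference -0.88, adjusted p = 0.0363). Both lost the call in each fit without 1 library.

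**Figure D3:**
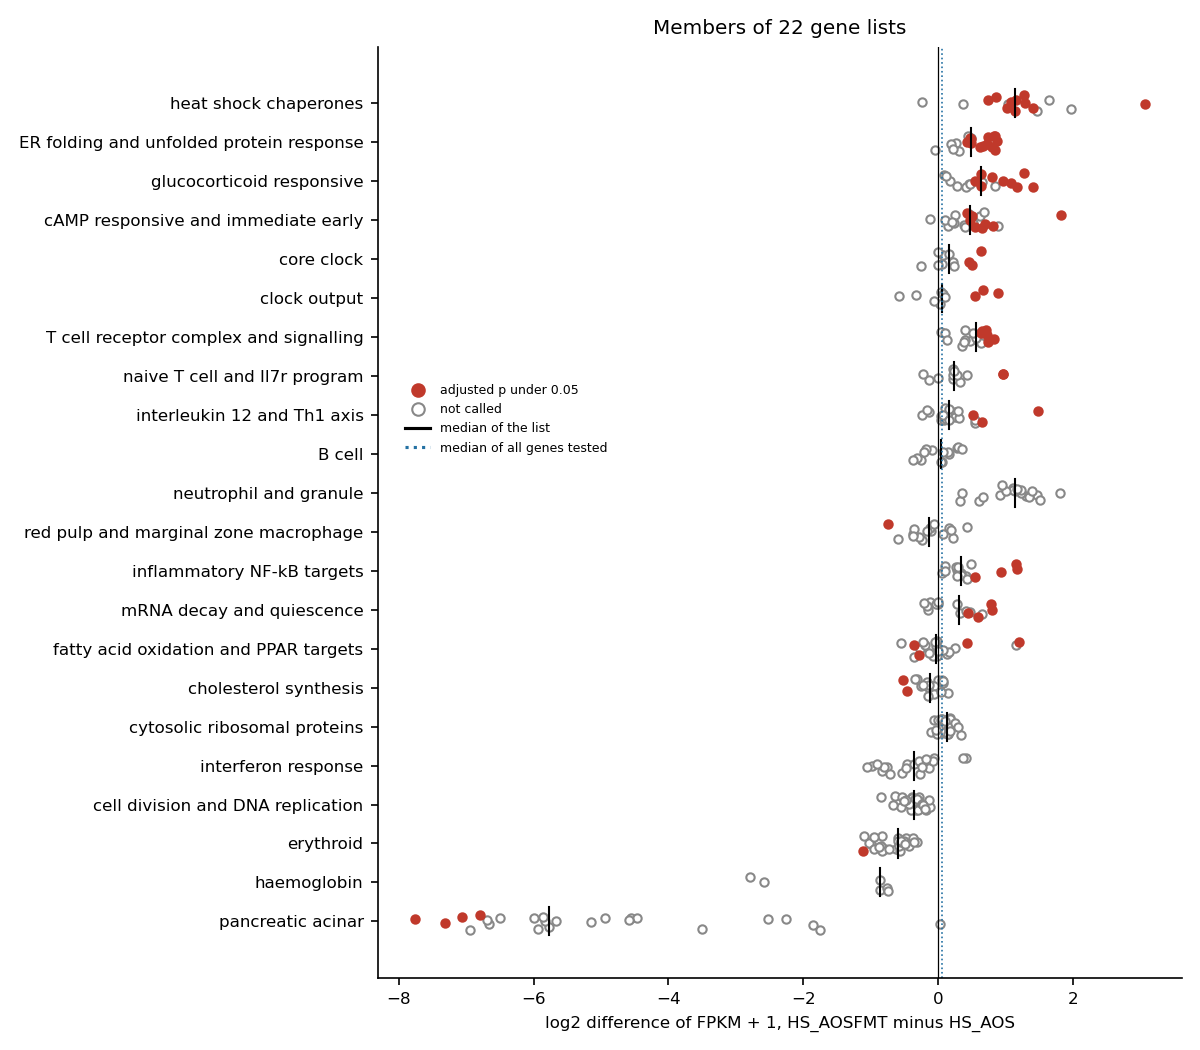
Log2 difference in FPKM + 1 (HS_AOSFMT minus HS_AOS) of every tested member of 22 gene lists, with filled points for genes at an adjusted p under 0.05, open points for the rest, black bars for list medians and a dotted line for the median of all genes (0.058). Filled points lie to the right in the chaperone, glucocorticoid, cAMP and T cell lists, and the neutrophil list lies to the right, median 1.14, with 0 filled points.

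Inflammatory and myeloid genes gave a mixed picture. Il1b, the cytokine interleukin 1 beta, had 24.2, 34.0 and 36.6 FPKM in HS_AOSFMT libraries and 11.2, 11.7 and 18.5 FPKM in HS_AOS libraries (log2 difference 1.15, adjusted p = 0.00557, limma). Of 16 tested NF-kB targets, Il1b, Nfkbiz, Ccl2 and Cxcl1 rose and 0 fell. The median was 0.34, and Il1b alone was called without HS_AOS 1, HS_AOS 3, HS_AOSFMT 2 or HS_AOSFMT 3. After rescaling or without the filter on low values, 2 were called.

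Of 19 neutrophil and granule genes 0 were called in the fit over all 18 libraries, although all 19 differences were positive with a median of 1.14, 17 had groups that did not overlap (24.4% of all genes did so in that direction) and 2 had an unadjusted p under 0.05, beside 26.3% of all genes. With the 2 groups fitted alone, 16 of the 19 were called. S100a8, a calcium-binding protein of neutrophils, had 514, 691 and 628 FPKM in HS_AOSFMT libraries and 166, 286 and 223 FPKM in HS_AOS libraries (log2 difference 1.46, adjusted p = 0.239, limma). The mean log2 level of the list ran from 4.07 to 7.78 in control libraries, a spread that the fit over all libraries includes and the fit of the 2 groups does not. Interferon-response genes had 0 of 21 called and 0 with an unadjusted p under 0.05, with a median of -0.36. Their mean log2 level was 4.09, 4.49 and 4.16 in HS_AOSFMT libraries and 4.58, 3.93 and 5.46 in HS_AOS libraries, which overlapped. The median was -0.09 without HS_AOS 3 and -0.72 without HS_AOS 2. Arg2, the mitochondrial arginase, had 13.2, 10.5 and 12.5 FPKM in HS_AOSFMT libraries and 2.32, 2.61 and 4.57 FPKM in HS_AOS libraries (log2 difference 1.68, adjusted p = 0.000505, limma).

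Red cell genes lay lower in transplant recipients, with few calls. All 29 tested erythroid genes and all 6 haemoglobin genes had negative differences, with medians of -0.59 and -0.86. Fech, which inserts iron into haem, was the 1 called erythroid gene, 3.4% of the list beside 2.14% of all genes called lower. It had 85.8, 107 and 70.0 FPKM in HS_AOSFMT libraries and 187, 134 and 263 FPKM in HS_AOS libraries (log2 difference -1.11, adjusted p = 0.0442, limma). The groups did not overlap, which its naming by size required. The call was lost in each fit without 1 library other than HS_AOS 2. Among the haemoglobin genes 0 were called and 2 had an unadjusted p under 0.05. Erfe, the erythroid hormone that lowers hepcidin, averaged 0.423 ± 0.242 FPKM in HS_AOSFMT and 2.16 ± 1.12 FPKM in HS_AOS (log2 difference -1.11, adjusted p = 0.0172). Slc40a1, the iron exporter ferroportin of red pulp macrophages, averaged 44.0 ± 4.44 FPKM in HS_AOSFMT and 75.7 ± 20.1 FPKM in HS_AOS (log2 difference -0.74, adjusted p = 0.0166, limma). It was the 1 called gene of 16 in the red pulp list (6.2%, beside 2.14% of all genes called lower). Erfe lost the call without HS_AOS 1, HS_AOSFMT 1 or HS_AOSFMT 3, and Slc40a1 without HS_AOS 3 or HS_AOSFMT 2.

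Cell division genes followed the same direction without a call: 0 of 28 were called and 6 had an unadjusted p under 0.05 (26.3% of all genes did), all 28 differences were negative and the median was -0.36. Ccnb2, a mitotic cyclin, averaged 38.9 ± 9.09 FPKM in HS_AOSFMT and 71.1 ± 15.6 FPKM in HS_AOS (adjusted p = 0.0828, limma).

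The largest negative differences belonged to enzymes of the exocrine pancreas. Ctrb1, chymotrypsinogen B, had 1.77, 0.49 and 8.24 FPKM in HS_AOSFMT libraries and 5642, 622 and 110 FPKM in HS_AOS libraries (log2 difference -7.76 ± 1.99, adjusted p = 0.0321, limma). The 3 HS_AOS libraries differed among themselves by far more than the HS_AOSFMT libraries did. Ctrb1, Try5, Cela3b and Sycn were the 4 called of 25 acinar genes, and 24 of the 25 had negative differences, with a median of -5.77. Try5 belongs to a family of similar trypsinogens that can share reads. These genes made up 0.00567%, 0.00449% and 0.0136% of the summed FPKM in HS_AOSFMT libraries and 3.63%, 0.412% and 0.073% in HS_AOS libraries. They reached 3.27% in HS 1 too, a library without AOS. Low shares also occurred elsewhere, at 0.00572% in control 3, 0.00944% in AOS 1 and 0.0148% in HS_conFMT 2. Other libraries of those groups reached 0.334%, 0.145% and 0.626%. The count of 4 was 3 without HS_AOS 3, 1 without HS_AOS 2 and 0 in each other fit without 1 library. It was 0 with the 2 groups fitted alone, 9 after quantile normalization and 13 with plain eBayes. Markers of fat, another tissue beside the spleen, lay the other way without a call: all 10 adipocyte genes had positive differences, with a median of 0.99 (0.65 without HS_AOS 3), and 1 had an unadjusted p under 0.05 (limma). Cfd, the adipocyte protease adipsin, had 37.3, 31.3 and 32.5 FPKM in HS_AOSFMT libraries and 13.4, 12.2 and 5.15 FPKM in HS_AOS libraries (adjusted p = 0.251, limma). With the 2 groups fitted alone, 4 of the 10 were called. Their part in the other differences was not tested.

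Haemoglobin and acinar shares of the summed FPKM did not overlap between HS_AOSFMT and HS_AOS. With the haemoglobin level of each library as a covariate, 181 of the 12969 genes were called, and with the acinar level 156. Hspb1, Crem, Stat4 and Fkbp5 were called in both of those fits. Il7r, Satb1 and the called members of the core clock and germinal centre lists were called in neither. With the haemoglobin covariate 3 heat shock, 4 ER, 2 glucocorticoid, 1 cAMP and 1 T cell gene of the lists were called. With the acinar covariate these counts were 2, 3, 4, 1 and 1. The list medians with the haemoglobin covariate were 1.16 for heat shock, 0.48 for ER, 0.52 for glucocorticoid, 0.38 for cAMP and 0.48 for T cell genes. With the acinar covariate they were 0.61, 0.46, 0.48, 0.28 and 0.22 for the same lists. The covariates take up part of the group difference itself, so the separate part of each was not tested.

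**Figure D4:**
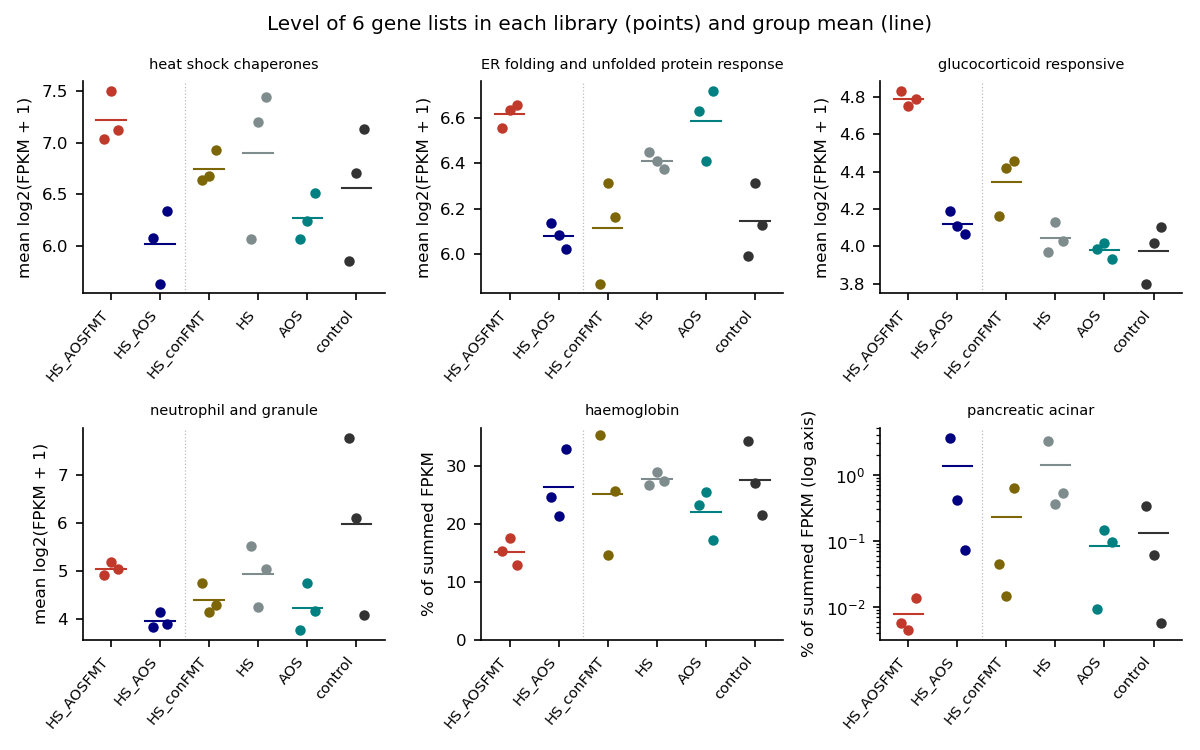
Level of 6 gene lists in each of the 18 libraries (points) with group means (lines), as mean log2(FPKM + 1) for 4 lists and as percent of summed FPKM for haemoglobin and pancreatic acinar genes, the last on a log axis. The glucocorticoid list is higher in the 3 HS_AOSFMT libraries, at 4.75 to 4.83, than in all others, while the heat shock, ER and neutrophil levels of HS_AOSFMT overlap those of other groups.

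Metabolic lists held few calls. Pdk4, the kinase that shuts pyruvate out of the mitochondrion during fasting, had 15.3, 11.2 and 14.0 FPKM in HS_AOSFMT libraries and 5.76, 5.72 and 4.43 FPKM in HS_AOS libraries (log2 difference 1.2, adjusted p = 0.00552, limma). In the list of fatty acid oxidation and PPAR targets, 2 of 21 rose, Pdk4 and the lipid droplet protein gene Plin2, and 2 fell, the beta-oxidation enzymes Acadvl (-0.28) and Acaa2 (-0.37). Each pair was 9.5% of the list, beside 6.42% of all genes called higher and 2.14% called lower. Plin2 lost the call without HS_AOS 3. Both falls lost it without HS_AOS 1, HS_AOS 2, HS_AOSFMT 2 or HS_AOSFMT 3. Of 15 lipogenesis genes 2 rose, Dgat1 and the fatty acid elongase Elovl5 (0.77, adjusted p = 0.048), and the desaturase Fads2 fell (-0.51, adjusted p = 0.0288). Elovl5 lost the call in all 6 fits without 1 library, and Fads2 without HS_AOS 1, HS_AOS 3, HS_AOSFMT 2 or HS_AOSFMT 3. Dgat1, the last enzyme of triglyceride synthesis, averaged 13.9 ± 0.654 FPKM in HS_AOSFMT and 8.03 ± 0.817 FPKM in HS_AOS (adjusted p = 0.00728, limma). Of 30 oxidative phosphorylation genes, 22 insulin-signalling genes and 32 cytosolic ribosomal protein genes 0 were called, with 3, 4 and 4 at an unadjusted p under 0.05 (26.3% of all genes) and medians of 0.02, 0.08 and 0.14.

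The largest positive difference was that of Zfp979, in a cluster of zinc finger genes on chromosome 4. Only some genes of that cluster are described here. Zfp979 (147611937 to 147642513) had 23.0, 9.35 and 16.5 FPKM in HS_AOSFMT libraries and 0.03, 0.03 and 0.09 FPKM in HS_AOS libraries (log2 difference 3.96 ± 0.67, adjusted p = 0.00443, limma). Its near neighbour Zfp984 averaged 10.8 ± 2.91 FPKM in HS_AOSFMT and 1.44 ± 0.327 FPKM in HS_AOS (2.25, adjusted p = 0.00224). Zfp985, singled out after its values were seen, averaged 2.25 ± 0.668 FPKM in HS_AOSFMT and 0.323 ± 0.0351 FPKM in HS_AOS (1.27, adjusted p = 0.00341). These genes are similar in sequence and can share reads, so each single value is uncertain. Zfp979 also varied inside other groups, at 8.05, 0.61 and 1.93 FPKM in HS_conFMT libraries and 0.20, 7.53 and 0.66 FPKM in AOS libraries.

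The remaining genes named by size belong to none of the lists. B3gnt7, a glycosyltransferase that extends sugar chains, had 10.3, 11.1 and 10.3 FPKM in HS_AOSFMT libraries and 2.78, 2.33 and 2.10 FPKM in HS_AOS libraries (log2 difference 1.77, adjusted p = 8.17e-05, limma). Gprasp1, which sorts receptors to lysosomes, had 42.2, 43.8 and 44.4 FPKM in HS_AOSFMT libraries and 11.5, 11.5 and 11.9 FPKM in HS_AOS libraries (1.82, adjusted p = 0.0036). Slc37a2, a sugar phosphate carrier, averaged 10.2 ± 2.27 FPKM in HS_AOSFMT and 2.54 ± 0.684 FPKM in HS_AOS, and Lman2l, an ER cargo lectin, 26.3 ± 3.87 FPKM in HS_AOSFMT and 7.98 ± 0.799 FPKM in HS_AOS. On the other side, Spon2, a secreted matrix protein, averaged 2.22 ± 0.418 FPKM in HS_AOSFMT and 5.81 ± 0.592 FPKM in HS_AOS (-1.08, adjusted p = 0.00378), and Tmem184a 1.14 ± 0.470 FPKM in HS_AOSFMT and 4.95 ± 0.294 FPKM in HS_AOS (-1.50, adjusted p = 0.0112). Both kept the call in all 6 fits without 1 library. Aldh1a7, Ccl24, Sectm1a and Nmnat3 fell by 1.27, 1.17, 1.11 and 1.03 on the log2 scale. Aldh1a7 lost the call without HS_AOS 1, HS_AOSFMT 1 or HS_AOSFMT 2, and the others in each fit but 1, which was that without HS_AOSFMT 2 for Ccl24, HS_AOS 1 for Sectm1a and HS_AOS 2 for Nmnat3.

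Rbm3, which encodes an RNA-binding protein induced by cold, fell and was singled out after its values were seen. It had 194, 210 and 171 FPKM in HS_AOSFMT libraries and 391, 369 and 334 FPKM in HS_AOS libraries (log2 difference -0.93 ± 0.16, adjusted p = 0.00421, limma). It was called in all 6 fits without 1 library. Cirbp, the other well-known cold-inducible RNA-binding protein gene, was not called (-0.25, adjusted p = 0.404). In HS libraries Rbm3 had 329, 210 and 226 FPKM, so HS 2 and HS 3 lay nearer to the HS_AOSFMT values and HS 1 nearer to the HS_AOS values.

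The called genes were also read in the other 4 groups. For the 833 genes higher in HS_AOSFMT, the group mean lay nearer to HS_AOS than to HS_AOSFMT in 783 genes for HS_conFMT (94.0%), 769 for HS (92.3%), 688 for AOS (82.6%) and 774 for control (92.9%). For the 278 lower genes it lay nearer to HS_AOS in 220 for HS_conFMT (79.1%), 194 for HS (69.8%), 213 for AOS (76.6%) and 220 for control (79.1%). All 3 HS_AOSFMT values lay above all 15 other libraries in 577 of the 833 genes (69.3%) and below all 15 in 113 of the 278 (40.6%). Over all genes tested these shares were 8.03% and 1.36%. All were read on the values as deposited and not after rescaling. The called genes were picked by their HS_AOSFMT and HS_AOS values, so all shares of called genes given here are in part fixed by that choice.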

How the data were processed

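RNA of mouse spleen was sequenced in 18 libraries. Per the submitters' processing notes the genome build was mm10 and Bowtie 0.12.2 was used. Which counter and annotation were used, and whether strand was kept, is not stated there. The deposited table holds 1 value per gene and library, read here as FPKM made by the authors. The file does not name the unit. It was inferred from the values, whose sums ran from 666441 to 831448 (coefficient of variation 6.14%, and 1.61% after weighting by transcript length). Depth is unknown, so no counting intervals are given. Of 19326 entries, 26 had symbols turned into dates and 418 were 0 everywhere. Coordinates come from GENCODE M21 (mm10), which held 97.1% of symbols, and promoters from RefSeq (GRCm38.p6). No protein table was used here.

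The 6 groups were modelled together on log2(FPKM + 1) in limma 3.58.1 (R 4.3.3), with no covariate and with robust, trended eBayes. This left 12 residual and added a median of 3.38 prior degrees of freedom, and p-values are two-sided. The pseudocount of 1 understates changes of low genes. Genes were named by size (the 12 called genes of each direction that differed most and did not overlap, predicted genes and receptor segments aside) and by list (up to 4 members of lowest p). Other genes named were chosen after their values were seen. The members, lists and motifs were chosen with earlier results of these data known. Alternatives were the pseudocount, the filter, the samples fitted, the replicate block, 2 scalings, plain eBayes and leaving out each library, and covariates for haemoglobin and acinar levels were chosen after seeing the data. Groups of 3 are too small for a check of single outlying values. A few results are not reported here.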

Additional observations from a re-analysis of the deposited data

How the results depend on the processing

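All 1111 calls kept their sign under each alternative listed here. The number of calls was 1101 with a pseudocount of 0.1, 928 without the filter (18908 genes tested), 1184 with the 2 groups fitted alone, 1129 after quantile normalization (64.0% higher), 871 after rescaling without haemoglobin and acinar genes (39.5% higher) and 1088 with plain eBayes. The fits without 1 library gave 363 to 1028. With the haemoglobin level as covariate 181 genes were called, and with the acinar level 156; these levels differ between the groups, so such fits remove part of the contrast. With a replicate block of the title numbers 1340 genes were called, 1078 of them shared with the fit without it. Deviations of same-numbered HS_AOSFMT and HS_AOS libraries correlated at 0.18, -0.35 and -0.007. The other groups were not compared in this way, so these values do not tell whether the numbers mark a shared batch. For single genes named, 948 values kept their side of the threshold, 335 lost the call and 7 gained it, and 0 reversed. Of the list medians, 496 moved by less than the spread used and 59 by more. Without counts, differences among genes of low FPKM are the least secure.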
